A study of Mus musculus with 6 samples.

Results

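The genes described are 9 transcription factors grouped here as AP-1 factors, namely Fos, Fosb, Fosl1 and Fosl2 (the Fos subfamily), Jun, Junb and Jund (the Jun subfamily), and the related factors Atf3 and Maff. They were taken by gene symbol, with earlier results of these data known, and all 9 were among the 16894 genes listed for cultured fibroadipogenic progenitors (FAPs), the mesenchymal progenitors of mouse skeletal muscle. FAPs had been isolated from the hindlimb muscles of male and female C57BL/6 mice aged 3 to 6 months by magnetic sorting for CD45-/CD31-/α7-integrin-/SCA-1+ cells, and both groups were cultured with 20% FBS and 10 ng/mL of bFGF at 3% O2. In 3 cultures senescence was induced with 20 μM of etoposide, a topoisomerase II poison that breaks DNA, for 48 h and then 5 days in normal medium, and RNA of these senescent FAPs was compared to RNA of 3 cultures of control FAPs. The sources used here do not say whether control FAPs received vehicle or whether the cultures came from separate animals, so p-values measure the spread between these cultures, which may be technical.

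AP-1 is a dimeric DNA-binding factor whose subunits pair through a leucine zipper. Jun proteins form dimers with each other or with Fos proteins, whereas Fos proteins need a Jun partner to bind DNA. Fos, Fosb, Jun, Junb and Atf3 are classical immediate early genes that growth factors and stress induce within minutes through MAP kinases, and AP-1 sites lie near many genes of inflammation and matrix remodelling that stromal cells express. Fosl1 (Fra-1) and Fosl2 (Fra-2) lack the strong activation domain of Fos, Junb and Jund are often weaker activators than Jun, Atf3 is a stress-induced factor of the ATF/CREB group, and Maff is a small Maf protein without an activation domain that pairs with NFE2-type factors.

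Values are CPM, read counts relative to a library size that edgeR had already scaled, and tests are limma's moderated test on log2(CPM + 0.5) with Benjamini-Hochberg adjustment over the 14776 genes that passed a filter on low values. All 9 AP-1 genes passed it, each with 253 to 24293 reads in every library. Libraries held 41412179 to 59912520 reads on genes. The cell cycle inhibitor Cdkn1a averaged 290 CPM in control FAPs and 1038 CPM in senescent FAPs, and the proliferation gene Mki67 stood at 101 to 247 CPM and 9.27 to 19.0 CPM. Cdkn2a, another cell cycle inhibitor gene, averaged 85.5 and 90.0 CPM with overlapping groups and did not pass (limma adjusted p = 0.765). All 8 FAP markers sought were listed, with Pdgfra at 126 to 254 CPM and a summed level of 15980 to 35141 CPM in controls and 9158 to 13995 CPM in senescent cultures. Most of that sum was Col1a1, which averaged 15545 and 3116 CPM and was lower, and Col3a1, while Ly6a (1.68-fold), Cd34 (3.11-fold), Dcn (3.17-fold) and Lum (6.33-fold) were higher (limma). Of 10 leukocyte markers 6 were listed, with sums of 10.3 to 13.1 CPM and 24.8 to 30.3 CPM and no line for Ptprc, Adgre1, Tyrobp or Cd52. Myogenic markers (3 of 8 listed, with no line for Pax7, Myod1, Myf5, Myog or Cdh15) summed to 15.2 to 19.5 CPM and 24.3 to 31.3 CPM. Sums for Schwann cell markers (4 of 5 listed, without Sox10) were 3.44 to 7.55 CPM and 8.40 to 10.8 CPM, and for pericyte or smooth muscle markers (6 of 6) they were 306 to 406 CPM and 251 to 272 CPM. Most of the latter was Cspg4, which averaged 288 and 167 CPM and was lower, as was Mcam, while Notch3 (3.11-fold) and Rgs5 (3.55-fold) were higher. Endothelial markers (4 of 7 listed) overlapped between groups, at 18.0 to 38.4 CPM and 22.2 to 29.2 CPM. The part of these other cells in the AP-1 values was not tested, and in such bulk RNA fewer cells of a type and less RNA per cell cannot be told apart.

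Against control FAPs, senescent FAPs had less Fos and Junb mRNA and more Maff and Fosl1 mRNA, while Fosb, Fosl2, Jun, Jund and Atf3 did not pass an adjusted p of 0.05. Thus 4 of the 9 AP-1 genes were called in the unpaired fit of all 6 libraries, beside 46.1% of all genes tested. They were split evenly, 2 higher beside 21.8% of all genes and 2 lower beside 24.3%, and the median change of the 9 was 0.031 on the log2 scale against −0.033 for all genes. The groups did not overlap for the same 4 genes, beside 57.4% of all genes tested. Their changes were modest. The largest, that of Fos, was 0.56 on the log2 scale, and 4470 genes (30.3%) moved further. Of the 4 calls, only that of Fos held under every alternative setting, as given below.

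**Figure D1:**
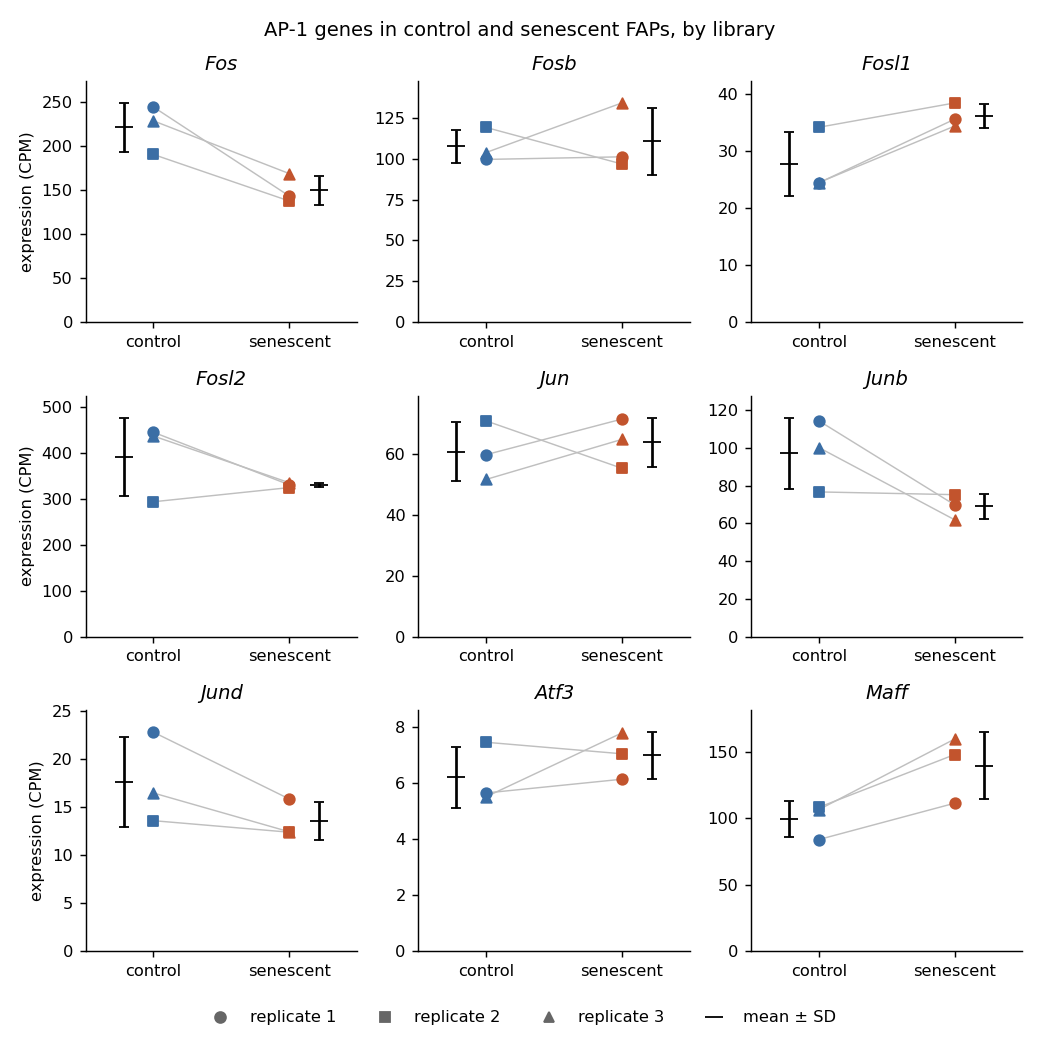
Level of each AP-1 gene (CPM, linear axes starting at 0) in 3 control and 3 senescent FAP libraries. Points are libraries marked by replicate number, and bars are the mean and SD of each group. The groups stand apart for Fos, Fosl1, Junb and Maff and overlap for the other 5 genes.

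The windows around the start sites of the genes that changed are shown first, because AP-1 genes are known to be controlled through ATF/CREB-type and serum response elements in their own promoters. RefSeq windows (GRCm38.p6, 250 bases before to 50 after the annotated start) were matched for 8 of the 9 genes, 10 windows in all, with no entry for Fosl1. Each was searched on both strands for TGANTCA (the AP-1 site, or TRE), TGACGTCA (the CRE), its half-site TGACG, the CArG box of serum response factor and TATAAA. Capitals mark the matches, and each window is written 5′ to 3′ on the strand of its gene.

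Fos, chr12:85473640-85473939, plus strand: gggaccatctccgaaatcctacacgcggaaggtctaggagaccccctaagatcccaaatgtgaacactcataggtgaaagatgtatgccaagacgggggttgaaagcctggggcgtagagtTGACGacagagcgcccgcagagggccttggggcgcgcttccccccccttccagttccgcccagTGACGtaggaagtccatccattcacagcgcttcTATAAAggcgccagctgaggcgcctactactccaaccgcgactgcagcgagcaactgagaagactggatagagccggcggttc

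Junb, chr8:84978699-84978998, minus strand: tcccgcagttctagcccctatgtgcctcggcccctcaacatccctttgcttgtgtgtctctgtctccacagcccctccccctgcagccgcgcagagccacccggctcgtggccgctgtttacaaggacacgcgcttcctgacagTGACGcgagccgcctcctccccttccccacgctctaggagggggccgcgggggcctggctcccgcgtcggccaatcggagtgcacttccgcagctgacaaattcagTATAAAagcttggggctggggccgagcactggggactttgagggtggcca

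Maff, second of 3 windows, chr15:79347270-79347569, plus strand: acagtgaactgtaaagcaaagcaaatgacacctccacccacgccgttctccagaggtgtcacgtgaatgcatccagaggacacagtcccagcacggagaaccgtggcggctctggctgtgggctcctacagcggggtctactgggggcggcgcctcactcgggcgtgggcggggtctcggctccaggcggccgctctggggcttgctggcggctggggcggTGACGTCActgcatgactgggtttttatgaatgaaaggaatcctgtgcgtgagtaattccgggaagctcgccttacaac

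The Fos window held TGACG at −129 to −125 and at −66 to −62 from the start and TATAAA at −33 to −28. Junb had TGACG at −106 to −102 and TATAAA at 1 to 6 from the RefSeq start. GENCODE M21 places the start of Junb downstream of that, at 84978718, so TATAAA lies before the GENCODE start. The second Maff window held the whole palindrome TGACGTCA at −29 to −22, in which both half-sites overlap, and this was the only CRE among the 10 windows. The CRE occurred in 1.79% of 32851 promoter windows of 27025 mouse genes. Of the 8 AP-1 genes matched, 5 (Fos, Fosb, Junb, Atf3 and Maff) had TGACG, beside 20.8% of all windows, and 2 had TATAAA, beside 13.6%. The counts are of genes and the shares are of windows. Maff had several windows in which to match, so the 2 are not like for like. Within these windows none of the matched AP-1 genes had TGANTCA or a CArG box, which occurred in 7.81% and 1.63% of all windows. Sequence further upstream was not searched, so serum response elements or AP-1 sites lying there would be missed. The Jund window, chr8:70697489-70697788, does not hold the start of its 1 GENCODE transcript at 70698949, so sites around that start would be missed as well. Sites that differ from the patterns by a letter would be missed too. The Jun window, for example, held tgacatca, which no pattern matches. TGACG was thus present both in genes that fell and in 1 that rose. A match is a run of letters, not a measured binding site.

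Fos (chr12:85473890-85477273, GRCm38, plus strand) encodes the founding subunit of the Fos subfamily. Control replicates 1, 2 and 3 held 245, 191 and 229 CPM, and senescent replicates 1, 2 and 3 held 143, 138 and 169 CPM, an order of replicates kept in the sentences that follow. Every senescent library lay under every control library. The mean of 221 ± 27.8 CPM in control FAPs (SD, n = 3) became 150 ± 16.6 CPM in senescent FAPs, and Fos fell by 0.56 on the log2 scale (SE 0.12, 95% interval −0.83 to −0.28, limma adjusted p = 0.00723). It was the 1 AP-1 gene called under every one of 17 alternative settings, and its change stayed between −0.66 and −0.48 with each library left out in turn.

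Fosb, a second immediate early Fos gene, had 99.6 to 119 CPM in controls and 96.8 to 134 CPM in senescent cultures. The ranges overlapped, with a difference of 0.031 on the log2 scale (95% interval −0.28 to 0.34, limma adjusted p = 0.867). Senescent replicate 3 held the highest value, and the sign turned to −0.11 without it. The difference between Fos and Fosb was not tested.

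Fosl1, which encodes Fra-1, stood at 24.4, 34.2 and 24.5 CPM across the controls and at 35.6, 38.4 and 34.4 CPM across the senescent cultures. Control replicate 2 lay nearly as high as senescent replicate 3, and the groups only just stood apart. The mean rose from 27.7 ± 5.61 to 36.1 ± 2.08 CPM (SD, n = 3), by 0.39 on the log2 scale (SE 0.14, 95% interval 0.071 to 0.72, limma adjusted p = 0.0497). The call held in 9 of 17 alternative settings and in 1 of the 6 that leave out a library (limma adjusted p up to 0.155), and the change then ranged from 0.31 without control replicate 1 to 0.55 without control replicate 2. On the opposite strand Ccdc85b shares 1163 of the 2033 exon bases of Fosl1, and the sources used here do not say if reads were counted by strand. Ccdc85b itself averaged 6.76 CPM in control FAPs and 4.19 CPM in senescent FAPs.

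Fosl2, which encodes Fra-2, had 444, 293 and 436 CPM in control FAPs and 330, 324 and 335 CPM in senescent FAPs. The 3 senescent libraries lay close together, and control replicate 2 lay under all of them while the other controls lay above. The means were 391 ± 85.0 and 330 ± 5.40 CPM (SD, n = 3), a difference of −0.22 on the log2 scale (95% interval −0.58 to 0.14, limma adjusted p = 0.277). Without control replicate 2 the difference was −0.42 and passed the test (limma adjusted p = 0.00279).

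In the Jun subfamily, Jun encodes c-Jun, the strongest activator of its subfamily. It had 51.7 to 71.0 CPM in controls and 55.4 to 71.6 CPM in senescent cultures. The ranges nearly coincided, and the difference of 0.075 on the log2 scale did not pass the test (95% interval −0.24 to 0.39, limma adjusted p = 0.680). Junos, on the opposite strand, shares 232 of the 3189 exon bases of Jun and averaged 1.02 CPM in controls and 3.04 CPM in senescent cultures.

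Junb (chr8:84974484-84978718, minus strand) stood at 114, 76.7 and 100 CPM across the controls and at 69.8, 75.2 and 61.9 CPM across the senescent cultures. The groups were apart by the small gap between control replicate 2 and senescent replicate 2. The mean fell from 97.0 ± 19.0 to 69.0 ± 6.69 CPM (SD, n = 3), and Junb fell by 0.47 on the log2 scale (SE 0.15, 95% interval −0.82 to −0.13, limma adjusted p = 0.0329). The call held in 10 of 17 alternative settings and in 1 of the 6 that leave out a library (control replicate 2), with a limma adjusted p of up to 0.115 in the others. With division by library totals alone, Junb differed by −0.26 (limma adjusted p = 0.169), or by −0.43 relative to the median of all genes, which that scaling moved from −0.033 to 0.17. Prdx2, on the opposite strand, shares 173 of the 2301 exon bases of Junb and had 266 and 275 CPM on average in control and senescent FAPs.

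Jund, a Jun gene known for steady expression, stood at 22.8, 13.6 and 16.5 CPM in control FAPs and at 15.9, 12.4 and 12.4 CPM in senescent FAPs. Control replicate 2 lay inside the senescent range. The difference of −0.34 on the log2 scale did not pass the test (95% interval −0.80 to 0.11, limma adjusted p = 0.185). Because cultures with the same replicate number deviated together, a fit with the replicate number as a block was also made, and in it Jund was lower (limma adjusted p = 0.0444), as it was without control replicate 2 (−0.51, limma adjusted p = 0.0395). Its values are uncertain for another reason, since the predicted antisense gene Gm11175 shares 877 of its 1668 annotated exon bases.

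Atf3 was the least abundant AP-1 gene, with 5.51 to 7.45 CPM in controls and 6.14 to 7.79 CPM in senescent cultures. The ranges overlapped, and the difference was 0.17 on the log2 scale (95% interval −0.21 to 0.54, limma adjusted p = 0.428).

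Maff (chr15:79346621-79359076, plus strand) stood at 84.2, 108 and 107 CPM across the controls and at 111, 148 and 160 CPM across the senescent cultures. All senescent libraries lay above all control libraries, with senescent replicate 1 close to control replicate 2. The mean rose from 99.8 ± 13.5 to 140 ± 25.2 CPM (SD, n = 3), by 0.48 on the log2 scale (SE 0.15, 95% interval 0.12 to 0.84, limma adjusted p = 0.0370). Compared within replicate numbers, the 3 differences were 0.40, 0.45 and 0.58, and the block gave an adjusted p of 0.00198 from limma. Its call held in 12 of 17 alternative settings and in 2 of the 6 that leave out a library (control replicate 2 or senescent replicate 1), with a limma adjusted p of up to 0.127 in the others.

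**Figure D2:**
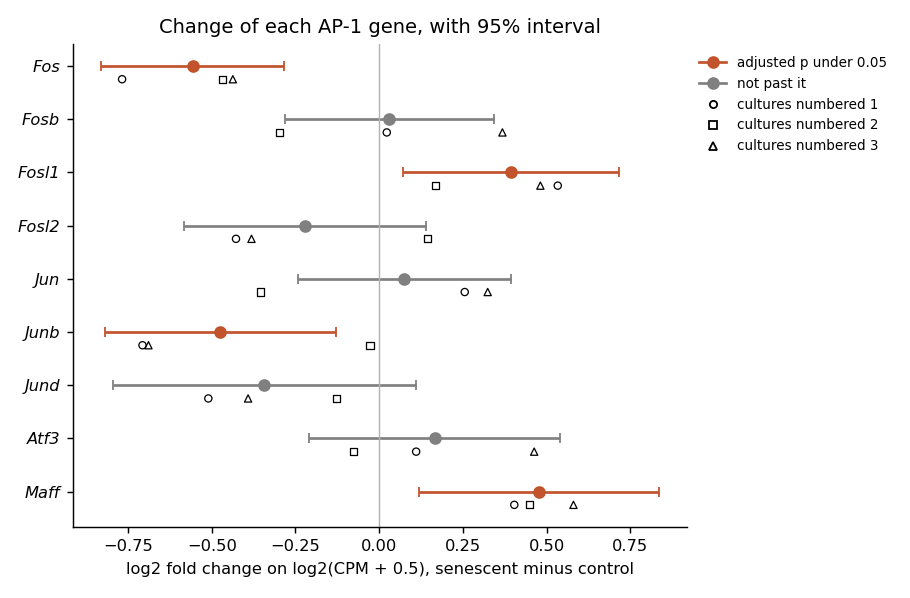
Change of each AP-1 gene (log2 of senescent over control, CPM + 0.5) with the 95% interval of limma's fit, and the difference within each of the 3 replicate numbers as points. The intervals of Fos, Junb, Fosl1 and Maff leave out 0. The groups of these 4 genes do not overlap, so their direction must be the same in all 3 replicate numbers. Jund, which was not called, also keeps its direction in all 3.

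With the replicate block 5 of the 9 AP-1 genes were called (Jund added), beside 50.9% of all genes. Leaving out control replicate 2 gave 6 (Fosl2 and Jund added), beside 49.3%. Leaving out control replicate 1, control replicate 3, senescent replicate 2 or senescent replicate 3 each left Fos alone, and leaving out senescent replicate 1 left Fos and Maff. Calls among all 14776 genes dropped in these fits too. They were 2130 to 2888 higher and 2416 to 3274 lower, beside 3218 and 3592 with all 6 libraries. Tests on the recovered reads called the same 4 genes with edgeR's quasi-likelihood test, with DESeq2 and with edgeR's likelihood-ratio test. Among all genes these tests called 3261 to 3560 higher and 3301 to 3440 lower.

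Control replicate 2 lay to one side in these genes. In all 9 it lay beyond both other controls on the side of the group difference, which was so in 41.6% of all genes tested. For Fosb and Jun that side is uncertain, since their differences turned sign when single libraries were left out. For Maff control replicates 2 and 3 were nearly level, at 108 and 107 CPM. Control replicate 1 held that place in 0 of the 9 AP-1 genes (28.2% of all genes) and control replicate 3 in 0 (30.2%). Against the mean of control replicates 1 and 3, control replicate 2 differed by −0.31 for Fos, −0.59 for Fosl2, −0.48 for Junb and −0.50 for Jund on the log2 scale, and by 0.47 for Fosl1. The senescent libraries differed from the same mean by −0.66, −0.42, −0.63 and −0.51 for those 4 genes and by 0.55 for Fosl1. Mki67, a marker of dividing cells that was lower in senescent cultures, stood at 247 CPM in control replicate 2 and at 125 and 101 CPM in control replicates 1 and 3. Spp1, Mmp13 and Mmp10, given below, were higher in senescent cultures and highest among the controls in control replicate 2. Whether culture state or handling differed in control replicate 2 was not tested.

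**Figure D3:**
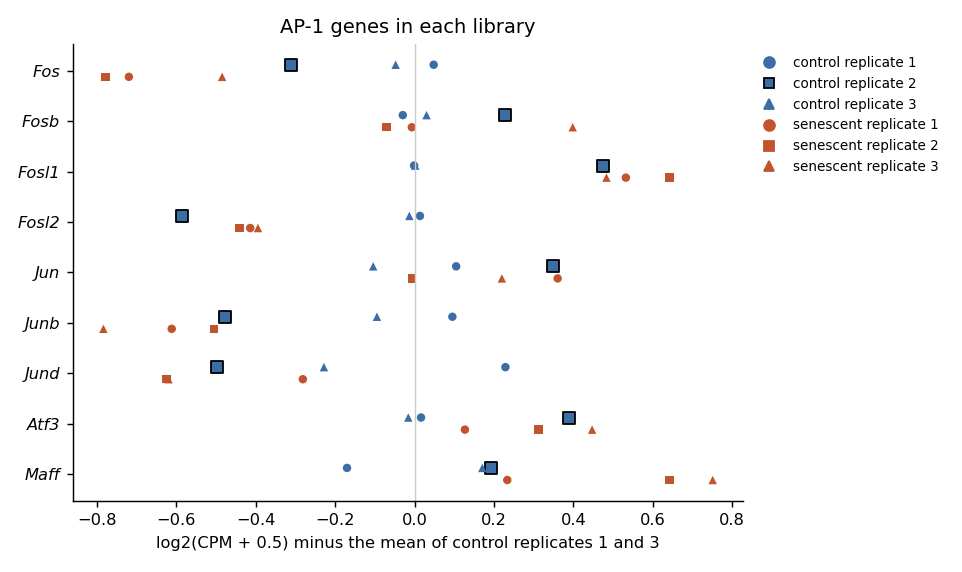
Level of each AP-1 gene in the 6 libraries (log2, relative to the mean of control replicates 1 and 3). Control replicate 2 lies beyond the other controls on the side of the group difference for all 9 genes. That side is uncertain for Fosb and Jun, and for Maff control replicate 3 is nearly level with it. For Fosb, Fosl2, Jun and Atf3 control replicate 2 lies past the mean of the senescent libraries.

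Between genes, levels were compared as CPM per kilobase of the longest GENCODE M21 transcript. In control FAPs Fos was the most abundant, at 105 ± 13.2 CPM per kb (SD, n = 3). Fosl2 (59.8 ± 13.0), Junb (53.6 ± 10.5) and Maff (51.0 ± 6.92 CPM per kb) followed, and within this trio neighbours in the order overlapped. Next came Fosb at 28.4 ± 2.72 CPM per kb. Jun at 19.1 ± 3.03, Fosl1 at 14.8 ± 3.01 and Jund at 10.6 ± 2.83 CPM per kb overlapped neighbour by neighbour, and Atf3 was lowest at 3.13 ± 0.55 CPM per kb. In senescent FAPs Maff, at 71.4 ± 12.9 CPM per kb, stood level with Fos at 71.2 ± 7.87 CPM per kb, with overlapping ranges. Fosl2 was at 50.4 ± 0.83 CPM per kb. Junb (38.1 ± 3.70) and Fosb (29.3 ± 5.40 CPM per kb) overlapped there, as did Jun (20.1 ± 2.55) and Fosl1 (19.4 ± 1.12 CPM per kb), above Jund at 8.13 ± 1.19 and Atf3 at 3.52 ± 0.42 CPM per kb. With the length of all merged exons Fos was first in both groups, but other parts of the order changed. Jun then lay above Fosb, at 19.1 and 17.2 CPM per kb in control FAPs and 20.1 and 17.7 CPM per kb in senescent FAPs. Junb lay above Fosl2 in control FAPs, at 42.2 and 40.4 CPM per kb. In senescent FAPs Fosl1 and Fosb were level at 17.8 and 17.7 CPM per kb. RefSeq gives Jund a longer span, by which its level would be 6.12 and 4.71 CPM per kb in control and senescent FAPs.

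Because Fos proteins compete for Jun partners, the makeup of each subfamily was computed as each gene's share of the summed CPM per kb. Fos made up 51.9%, 48.9% and 50.3% of Fos subfamily mRNA across the controls, against 41.4%, 40.6% and 43.3% across the senescent cultures. The groups did not overlap, and the share dropped by 8.62 percentage points (two-sided exact permutation p = 0.1, the smallest that 3 against 3 libraries allow). Fosl1 made up 5.86%, 9.90% and 6.08% in control FAPs and 11.6%, 12.8% and 9.95% in senescent FAPs, a rise of the mean by 4.17 points (exact permutation p = 0.1), again without overlap. The mean share of Fosb went from 13.8% to 17.1% (exact permutation p = 0.3) and that of Fosl2 from 28.5% to 29.7% (exact permutation p = 0.7), both with overlap. In the Jun subfamily the mean share of Junb was 64.1% in control and 57.5% in senescent FAPs (exact permutation p = 0.2), that of Jun 23.4% and 30.3% (exact permutation p = 0.2) and that of Jund 12.5% and 12.2% (exact permutation p = 0.7). Shares within a subfamily depend on each other, and none of these 7 tests could pass 0.05. The size of the Fosl1 and Jund shares is also uncertain because of their exon overlap with opposite-strand genes.

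**Figure D4:**
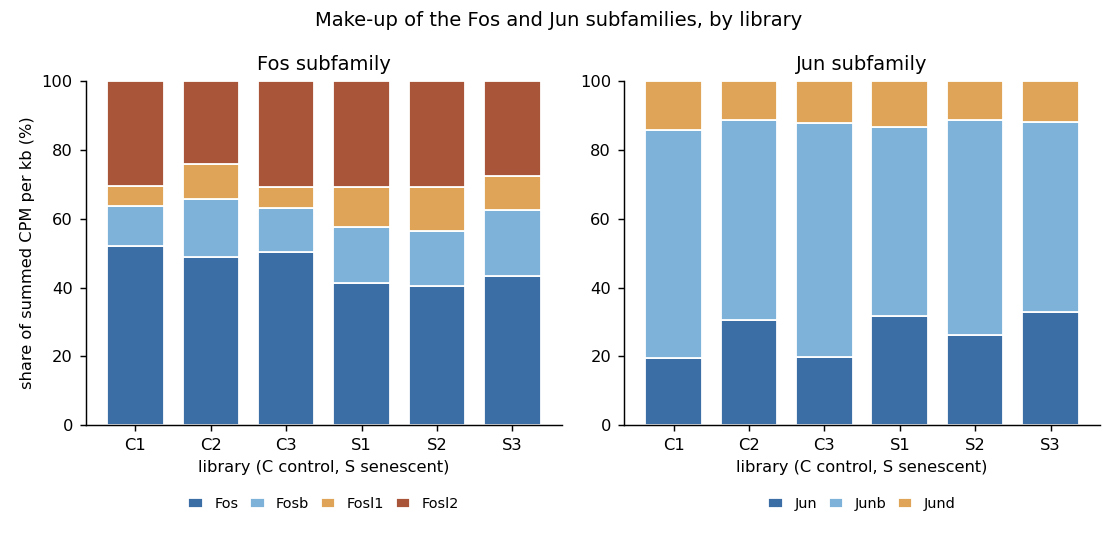
Share of each gene in the summed CPM per kb of its subfamily (percent, stacked bars from 0 to 100, 1 bar a library). Fos takes 48.9% to 51.9% of the Fos subfamily in controls and 40.6% to 43.3% in senescent cultures.

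The summed level of the Jun subfamily was 83.3 ± 11.5 CPM per kb in control FAPs and 66.3 ± 4.26 CPM per kb in senescent FAPs (SD, n = 3), without overlap. That of the Fos subfamily was 208 ± 20.3 and 170 ± 13.1 CPM per kb, and that of all 9 genes 345 ± 25.2 and 311 ± 19.4 CPM per kb, both with overlap. Fosl1 and Fosl2, the pair of Fra genes, were also set against each other within a library. The log2 ratio of their CPM was −4.19, −3.10 and −4.16 across the controls, against −3.21, −3.08 and −3.28 across the senescent cultures. Control replicate 2 lay among the senescent libraries, and the difference of 0.62 did not pass the test (exact permutation p = 0.3).

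The other bZIP factors that can pair with AP-1 subunits or bind like sites included the ATF/CREB, NFE2, Maf and Bach factors. Of 24 tested, 3 were higher, 6 were lower and 15 did not pass (37.5% called, median −0.12 on the log2 scale), where of all genes 46.1% were called, 21.8% higher and 24.3% lower. Without control replicate 2 the number lower in the list was 10, against 3 without control replicate 3 or senescent replicate 2 and 4 without any one of the rest. Of all 14776 genes 3875 were lower without control replicate 2, 2705 without control replicate 3 and 2416 without senescent replicate 2. Atf4, the effector of the integrated stress response, averaged 320 ± 46.4 CPM in control FAPs and 188 ± 27.4 CPM in senescent FAPs and fell by 0.77 on the log2 scale (limma adjusted p = 0.00368). Creb5, a CREB-group factor, fell by 1.02 (3.87 to 1.66 CPM, limma adjusted p = 0.00340). Nfe2l2, which encodes the antioxidant regulator NRF2 and is a partner of small Maf proteins such as Maff, rose by 0.54 from 140 ± 6.47 to 203 ± 9.09 CPM (limma adjusted p = 0.00108). Nfe2l1, its relative, had 371 and 393 CPM and did not pass (limma adjusted p = 0.449).

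Among 29 other immediate early genes tested, 13 were lower, 3 were higher and 13 did not pass (55.2% called, median −0.27), beside 24.3% lower, 21.8% higher and 46.1% called among all genes. With library totals alone the split was 6 lower and 6 higher, and the number lower was 8 without control replicate 1 or 3 and 7 without senescent replicate 3. The number higher was 6 without control replicate 2. Of all 14776 genes 1929 were lower and 4992 higher with library totals alone. Without control replicate 1, control replicate 3 or senescent replicate 3, the genes lower numbered 2904, 2705 and 2640 among all tested. Without control replicate 2, 3405 were higher. Klf2, a Krüppel-like factor, fell by 1.79 on the log2 scale from 40.3 ± 8.61 to 11.2 ± 2.02 CPM (limma adjusted p = 0.000489), and Myc fell by 1.24 from 61.0 ± 8.35 to 25.8 ± 5.11 CPM (limma adjusted p = 0.000874). Cyr61, a secreted matricellular protein and a target of serum response factor and YAP, fell by 0.60 from 1342 to 887 CPM (limma adjusted p = 0.00432). Nr4a3, an orphan nuclear receptor, rose by 1.12 from 5.69 ± 0.98 to 12.9 ± 1.26 CPM (limma adjusted p = 0.00119). Ctgf, at 3218 and 3439 CPM, and the prostaglandin synthase gene Ptgs2, at 1743 ± 977 and 1749 ± 297 CPM, did not pass (limma adjusted p = 0.652 and 0.776). Control replicate 2 had 2837 CPM of Ptgs2, the highest of the 6 libraries.

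The upstream kinases, ternary complex factors and other regulators of AP-1 (30 genes, all tested) counted 11 lower, 3 higher and 16 that did not pass (46.7% called, median −0.10), a share called that was close to the 46.1% of all genes. With library totals alone they counted 2 lower and 6 higher, beside 1929 lower and 4992 higher of all 14776 genes. The number lower was 7 without control replicate 1 or 3, 5 without senescent replicate 2 and 6 without senescent replicate 3. In these 4 fits, in that order, 2904, 2705, 2416 and 2640 of all genes were lower. The number higher was 1 without either of these senescent libraries, beside 2130 and 2266 of all genes. Mapk14, the p38α kinase, fell by 0.55 from 93.4 ± 1.81 to 63.8 ± 4.48 CPM (limma adjusted p = 0.00122), and Trib1, an adaptor for the ubiquitin ligase COP1, fell by 0.66 from 56.4 ± 4.96 to 35.5 ± 2.41 CPM (limma adjusted p = 0.00143). Mapk10, a JNK gene best known from neurons, rose by 0.89 on the log2(CPM + 0.5) scale, but from 2 to 11 reads in control libraries to 30 to 40 reads in senescent libraries (limma adjusted p = 0.00606). All control libraries of Mapk10 lay under 0.5 CPM, so it passed the filter through senescent libraries alone, which favoured a call of higher. With a filter of 2 CPM 2 regulators were higher, beside 2421 of the 12304 genes then tested. Among the most abundant regulators, the MAP kinase kinase gene Map2k1 (158 and 154 CPM) and the ternary complex factor Elk3 (118 and 117 CPM) did not pass the test (limma adjusted p = 0.739 and 0.910).

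Of 26 textbook AP-1 target genes tested, 11 were higher, 3 were lower and 12 did not pass (53.8% called, median 0.17), beside 46.1% called, 21.8% higher and 24.3% lower among all genes. With the replicate block 11 were higher and 6 lower, beside 50.9% of all genes called. The number lower was 5 without control replicate 2 or 3 and 1 without senescent replicate 3. Those fits, in that order, had 3875, 2705 and 2640 of all 14776 genes lower. The collagenase Mmp13 had 3, 36 and 5 reads in the controls but 244, 385 and 219 reads in the senescent cultures, a rise of 3.00 on the log2(CPM + 0.5) scale (limma adjusted p = 0.000377). Stromelysin 2, Mmp10, had 3, 18 and 3 reads and then 110, 158 and 106 reads, a rise of 2.17 (limma adjusted p = 0.000326). For both metalloproteinases control replicate 2 was the highest control. The pseudocount makes these values understate the change of such low genes. Neither metalloproteinase would have passed the filter of 0.5 CPM through its control libraries, so the filter favoured calls of higher. With a filter of 2 CPM 10 target genes were higher, beside 2421 of the 12304 genes then tested. Dnmt1, the maintenance DNA methyltransferase, fell by 1.40 from 100 ± 17.3 to 37.3 ± 3.02 CPM (limma adjusted p = 0.000331). The matricellular gene Thbs1 had 16103 and 12895 CPM and did not pass (limma adjusted p = 0.352). Spp1, which encodes osteopontin, had 331, 2041 and 384 CPM in control FAPs and 2991, 3891 and 4096 CPM in senescent FAPs (2.51 on the log2 scale, limma adjusted p = 0.0140), again with control replicate 2 the highest control. Without senescent replicate 3 Spp1 did not pass (limma adjusted p = 0.0552), with no change of direction.

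**Figure D5:**
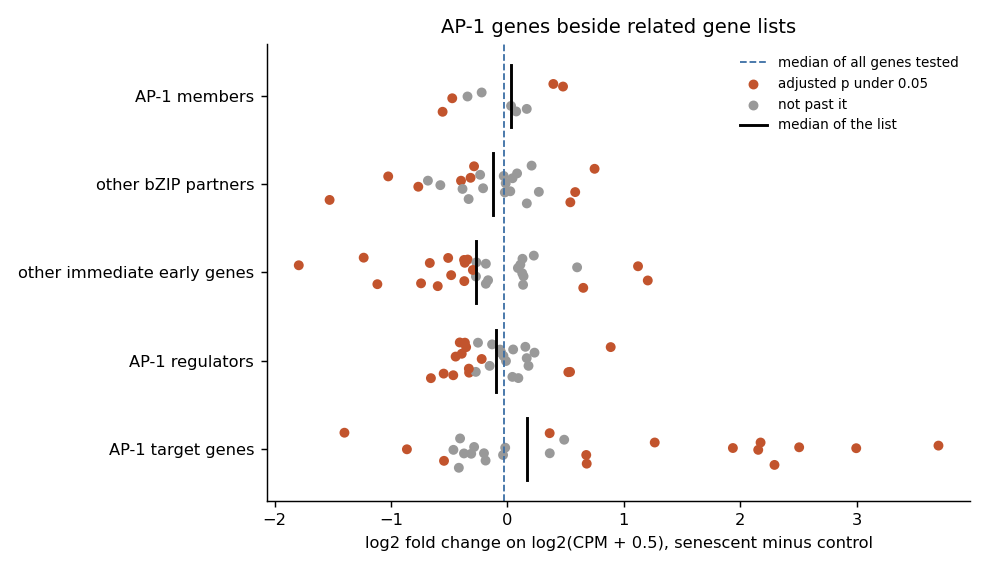
Change of each gene (log2 of senescent over control, CPM + 0.5) in the AP-1 genes, other bZIP partners, other immediate early genes, AP-1 regulators and AP-1 target genes. Orange points passed an adjusted p of 0.05 in limma and bars are list medians, which run from −0.27 for other immediate early genes to 0.17 for target genes.

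The genes whose log2 levels followed an AP-1 gene most closely over the 6 libraries were found by Pearson's r among 14767 other genes, as a description of libraries that share the group difference and their scaling. For Fos these were Popdc2 (r = 0.991), Gm16580 (0.990) and Gm10282 (0.989), with 213 genes above 0.95. For Maff they were Stau2 (0.997), A930012L18Rik (0.997) and Wwp1 (0.996), with 276 genes above 0.95. Jun, whose groups overlapped, had 4 genes above 0.95, led by Nck2 (0.979), Vat1 (0.964) and Slc35g2 (0.960). Atf3 had 66, led by Iars2 (0.994), RP24-568B16.1 (0.994) and Hsbp1l1 (0.992).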

How the data were processed

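RNA-seq of control and senescent FAPs was analysed in 6 libraries, 3 per group, with groups and replicate numbers taken from the sample labels. The authors used a stranded mRNA kit and, per the submitters' notes, genome build mm10, R 3.6.0 and edgeR 3.10. The aligner, counter and annotation are not given in the sources used here. The authors deposited CPM of the effective library size, a normalized signal. Every value (100%, tolerance 0.001 reads) was a whole multiple of 1 read (0.0167 to 0.0225 CPM), so reads were recovered. The scaling factors were 0.917 to 0.940 in control and 1.07 to 1.09 in senescent libraries. CPM had been assumed in planning and the test was kept. Of 16895 lines 1 named no gene (0.0041% to 0.0070% of reads) and was left out.

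Genes that reached 0.5 CPM in 3 or more libraries were tested two-sided with limma 3.58.1 (R 4.3.3, variance trend) on log2(CPM + 0.5), and called at a Benjamini-Hochberg adjusted p under 0.05. The members and lists were chosen with earlier results of these data known. From each list the 3 genes with the smallest p and the 3 with the largest mean CPM were named, and overlapping choices were named once. The list counts include 2 further genes under this rule that are not reported here. Cultures with equal replicate numbers deviated together (correlations of 0.537, 0.308 and 0.207), which makes the numbers pairs by the rule used (all over 0.1). Control replicate 2 with senescent replicate 3 was also over 0.1, at 0.153, and the other unlike numbers gave −0.357 to −0.028. The pairing was read from the data and is not stated in the labels. Alternatives were other pseudocounts, filters and scalings, each library left out, the replicate block, no variance trend, edgeR 4.0.16 and DESeq2 1.42.0 on recovered reads, and merged exon lengths. edgeR's likelihood-ratio test was added after the values were seen. Exact permutation tests used scipy 1.17.1. Gene positions and lengths came from GENCODE M21.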

Additional observations from a re-analysis of the deposited data

How the results depend on the processing

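Of the 9 AP-1 genes Fos was called in all 17 alternatives and Maff, Junb and Fosl1 in 12, 10 and 9. The calls of 2 higher and 2 lower AP-1 genes became 1 higher with a pseudocount of 1 CPM and 1 higher with a filter of 2 CPM (Fosl1, limma adjusted p = 0.0501 and 0.0515), 0 higher and 1 lower without a variance trend, and 1 lower with library totals alone. With library totals alone 4992 genes were higher and 1929 lower in place of 3218 and 3592, and the split became 5 and 3 for other bZIP partners, 6 and 6 for immediate early genes and 6 and 2 for regulators. That scaling moves the median of all genes by construction. The replicate block made 6 target genes lower in place of 3 and added Jund, and it changed no other call of an AP-1 gene.

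Leaving out each library in turn gave 0 to 2 AP-1 genes higher and 1 to 4 lower, 2130 to 3405 genes higher and 2416 to 3875 lower among all tested, 2 to 3 and 3 to 10 for other bZIP partners, 2 to 6 and 7 to 14 for immediate early genes, 1 to 3 and 5 to 12 for regulators, and 9 to 12 and 1 to 5 for target genes. Share differences in percentage points were −9.38 to −7.83 for Fos, 2.23 to 4.85 for Fosb, 3.46 to 5.48 for Fosl1, −0.95 to 2.39 for Fosl2, 5.01 to 10.5 for Jun, −9.51 to −4.64 for Junb and −0.98 to 0.57 for Jund, so those of Fosl2 and Jund turned sign. The log2 ratio of Fosl1 to Fosl2 differed by 0.44 to 0.98, and the changes of Fosb (−0.11 to 0.12) and Jun (−0.035 to 0.19) turned sign. The cause was not tested. The AP-1 genes had 253 reads or more in each library, and intervals from 3 cultures a group hold counting error and the spread between cultures together.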
